A study of Homo sapiens with 12 samples.

Results

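Addback cells labelled NA were compared with B4-4 cells labelled NA in MCF10-A, a human mammary epithelial cell line derived from non-tumour tissue. The members were 4 of the 12 libraries of the series, 2 of Addback NA and 2 of B4-4 NA, chosen by their titles. The series holds 3 derivatives (Addback, B4-4 and Vector), each with 2 libraries labelled NA and 2 labelled EDTA, a chelator that binds calcium and magnesium. In every group, cells grown with 5% horse serum were trypsinised and kept without serum for 3 hours on dishes with a poly-HEMA coating, to which cells do not attach, and RNA was then isolated without washing. The sources used here do not give the meaning of NA, the making of the Addback and B4-4 derivatives, or whether either is a clone or a pool. The labels number the libraries of a group but do not say that they came from separate cultures, so p-values measure only the spread between these libraries, which may be technical.

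The integrin of the alpha 6 and beta 4 chains is a receptor for laminin-332, a trimer of the basement membrane. In basal epithelial cells the long cytoplasmic tail of beta 4 binds plectin and ties the receptor to keratin filaments in hemidesmosomes. Keratinocytes that leave the basement membrane are known to switch on genes of the cornified envelope, the cross-linked protein shell of squamous cells. Detached epithelial cells lose contact with laminin, and the series concerns the role of this integrin in that state.

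Levels are in CPM, the usual depth-scaled unit of read counts, with library sizes scaled by the trimmed mean of M-values (TMM), and are given in the order replicate 1 and replicate 2. Differences are log2 fold changes, positive where Addback NA was higher, with their standard error (SE). Each adjusted p is edgeR's quasi-likelihood p after Benjamini-Hochberg adjustment across the 15749 genes tested, and a gene was called below 0.05. The libraries held 17815694 and 18654590 counts in Addback NA, and 17166964 and 15685376 counts in B4-4 NA. The biological coefficient of variation was 5.83% within Addback NA and 23.5% within B4-4 NA. Of the genes at 5 CPM or more, 8 of 10607 differed at least 2-fold between the Addback NA libraries, and 370 of 10584 did so between the B4-4 NA libraries. Because all 6 groups shared an estimate of the spread, the adjusted p-values below may be too favourable where the B4-4 NA libraries disagree.

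Markers of basal mammary epithelium were abundant in both derivatives. KRT5, a basal keratin, stood at 5975 and 5790 CPM in Addback NA and at 5440 and 4319 CPM in B4-4 NA. TP63, the basal transcription factor p63, stood at 111.8 and 108.2 CPM in Addback NA and at 125.7 and 81.2 CPM in B4-4 NA. EPCAM, a general epithelial marker, stood at 175.9 and 182.3 CPM in Addback NA and at 134.1 CPM in each B4-4 NA library. All 4 libraries thus held these epithelial markers. The summed level of 7 basal markers was 9537 and 9108 CPM in Addback NA and 10640 and 11440 CPM in B4-4 NA. Of these 7, EGFR was called higher, KRT17 (log2 fold change −1.58) and CDH3 (−0.83) were called lower, and the median was −0.66. Over all genes, 11.3% were called higher and 12.3% lower. Of 4 general epithelial markers, EPCAM was called higher and CDH1, KRT8 and KRT18 lower, and their summed level was 892 CPM in each Addback NA library and 1471 and 1421 CPM in B4-4 NA. Of 7 luminal markers 4 were tested and 1, GATA3, was higher, with a sum of 48.7 and 32.6 CPM in Addback NA and 27.8 and 16.2 CPM in B4-4 NA. The part of these differences in the results below was not tested.

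ITGB4 (ENSG00000132470, chromosome 17, 75721328 to 75757818, GRCh38), which encodes the beta 4 chain, was measured at 1060 and 1080 CPM in Addback NA, against 182 and 396 CPM in B4-4 NA and 1775 and 1780 CPM in Vector NA. Both Addback NA libraries lay above both B4-4 NA libraries and below both Vector NA libraries; over all genes tested, the Addback NA and B4-4 NA libraries did not overlap for 59.6%. The difference between Addback NA and B4-4 NA was called (log2 fold change +1.89, SE 0.29, adjusted p = 0.00283), and it stayed called without any single library, at +1.45 to +2.55. It was not called for a change beyond 2-fold (adjusted p = 0.072). Against Vector NA, ITGB4 in Addback NA differed by −0.73 (adjusted p = 0.0768). Whether the ITGB4 reads in Addback came from the native gene or from a transgene was not tested.

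**Figure D1:**
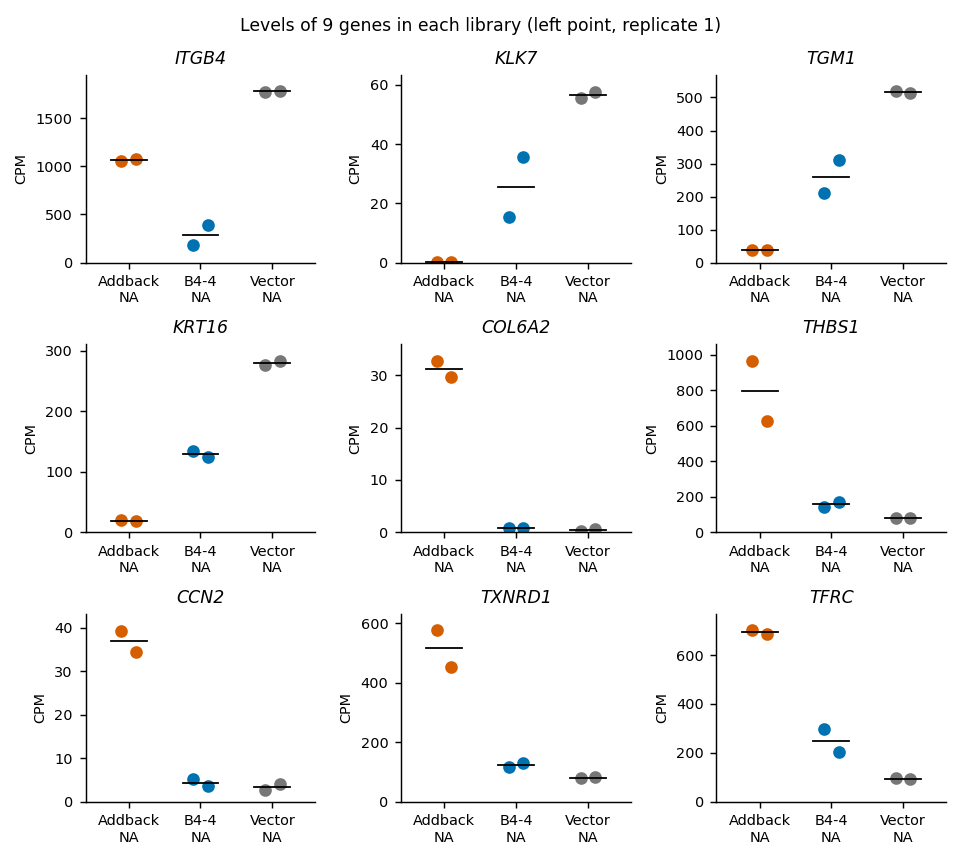
Level in CPM on linear axes from 0 for 9 genes in the 2 libraries of Addback NA, B4-4 NA and Vector NA; points are libraries and lines are means of 2. KLK7, TGM1 and KRT16 are lowest in Addback NA, while COL6A2, THBS1, CCN2, TXNRD1 and TFRC are highest there.

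The partner chain ITGA6 (ENSG00000091409, chromosome 2, 172427354 to 172506282, GRCh38) was not called, at 914 and 903 CPM in Addback NA and 672 and 906 CPM in B4-4 NA (log2 fold change +0.20, SE 0.13, adjusted p = 0.285). The ITGA6 value rests on the B4-4 NA libraries, at +0.018 without B4-4 NA 1 and +0.43 without B4-4 NA 2, where it was called higher (adjusted p = 0.0125). Of 11 laminin-binding integrin chains, other laminin receptors and laminin-332 chains tested, 3 were higher in Addback NA, 0 were lower, and the list's median was +0.07, beside a median of −0.02 over all genes tested. Over all genes, 11.3% were called higher and 12.3% lower. ITGA3, the alpha chain of another laminin receptor, was higher at 1327 and 1275 CPM in Addback NA against 664 and 923 CPM in B4-4 NA (log2 fold change +0.71, SE 0.13, adjusted p = 0.00217), with adjusted p = 0.0594 when these groups were fitted alone. BCAM, a laminin receptor of the immunoglobulin family, was also higher, at 54.7 and 49.4 CPM in Addback NA against 18.5 and 20.4 CPM in B4-4 NA (log2 fold change +1.42, SE 0.41, adjusted p = 0.0374). The BCAM call ended without any of 10 of the 12 libraries, with the replicate number as a block and with no filter on low counts. It held without Addback EDTA 1 or 2, which lie outside this contrast. With single libraries left out, the BCAM log2 fold change was +1.34 to +1.49.

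The B4-4 NA libraries differed from each other in LAMA3 and LAMB3, which encode laminin-332 chains. For LAMB3 (beta chain) the levels were 592 and 570.4 CPM in Addback NA and 539 and 1295 CPM in B4-4 NA, so both Addback libraries lay between the B4-4 libraries (log2 fold change −0.66, SE 0.32, adjusted p = 0.184). LAMA3, the alpha chain, stood at 527 and 526 CPM in Addback NA and at 536 and 897 CPM in B4-4 NA (log2 fold change −0.44, SE 0.21, adjusted p = 0.149). LAMA3 was called lower with no filter on low counts (−0.46, adjusted p = 0.00228) and without B4-4 NA 1 (−0.75, adjusted p = 0.00129), while it stood at −0.033 without B4-4 NA 2. Without B4-4 NA 1, 4 genes of the laminin list were called lower in Addback NA. LAMA3 and LAMB3 were chosen for the text after their values were seen.

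Among 5 hemidesmosome plaque and anchoring collagen genes, 0 were called higher and 2 lower. COL7A1, collagen VII of the anchoring fibrils, was lower at 27.8 and 27.4 CPM in Addback NA against 45.99 and 57.7 CPM in B4-4 NA (log2 fold change −0.91, SE 0.13, adjusted p = 0.000525). The other call, in COL17A1, a transmembrane collagen of the hemidesmosome, was small (−0.25), and the number lower was 1 under RLE or upper-quartile scaling and 4 without B4-4 NA 2.

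Over all genes, 3723 of 15749 (23.6%) were called between Addback NA and B4-4 NA, 1784 of them higher and 1939 lower in Addback NA. Calls of at least 2-fold were made for 835 genes higher (5.3%) and 664 lower (4.22%). Leaving out Addback NA 1 left 1324 calls, leaving out Addback NA 2 left 1831, and fitting these 2 groups alone gave 1288. With limma-voom and a weight per group, which lets the groups differ in spread, 1957 genes were called, 1930 of them shared with the 3723. The weight was 1.59 for Addback NA and 0.299 for B4-4 NA.

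**Figure D2:**
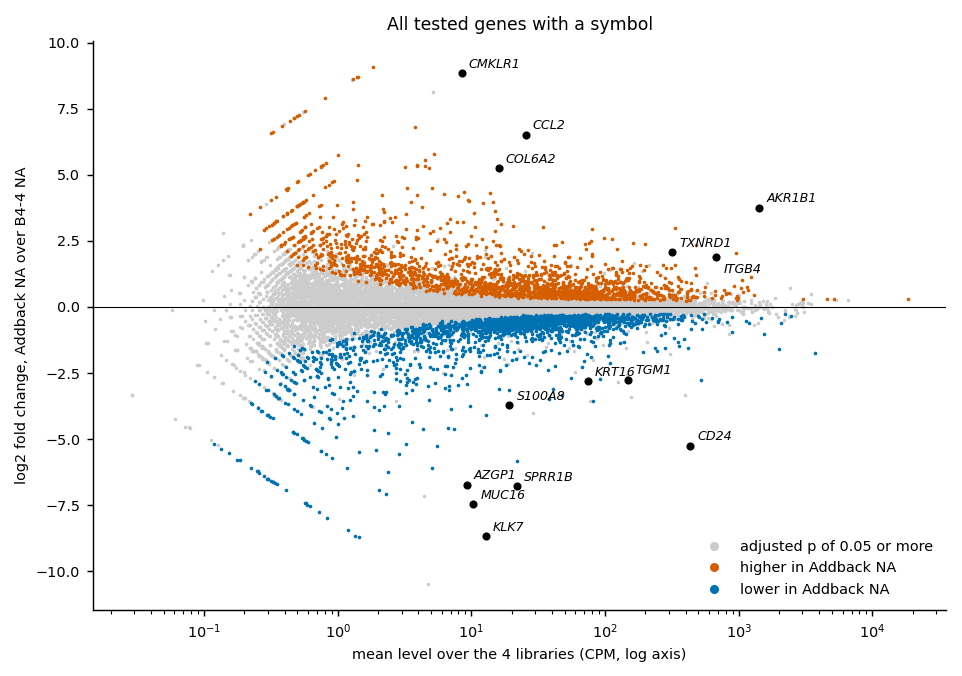
Mean level over the 4 libraries (CPM, log axis) against the log2 fold change of Addback NA over B4-4 NA for every tested gene with a symbol; coloured points were called and black points are genes described in the text. ITGB4 lies at +1.89, and the genes farthest from 0 among those labelled are CMKLR1 above and KLK7 below.

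The largest decreases in Addback NA included genes of squamous differentiation and epithelial secretion. KLK7 (ENSG00000169035, chromosome 19, 50976482 to 50984099, GRCh38), a kallikrein protease that cuts the junctions of shedding skin cells, had 1 count in each Addback NA library, against 267 and 557 counts in B4-4 NA. Pooled over the libraries of a group, KLK7 was 452-fold (exact 95% interval 125 to 3743) lower in Addback NA by counting error alone, and Vector NA held 55.7 and 57.6 CPM. KLK5, which activates KLK7, had 3 and 1 counts in Addback NA against 71 and 112 in B4-4 NA, 50.2-fold (exact 95% interval 19.3 to 186) lower in Addback NA. KLK8 had 0 counts in both Addback NA libraries against 15 and 32 in B4-4 NA, which puts it at least 17.2-fold lower in Addback NA with a floor of 3 counts over the group. Of 6 kallikrein-related proteases tested, 0 were higher and 5 lower in Addback NA, with a median of −6.31 from fitted values and of −4.84 with genes at 0 set to their bound. Without Addback NA 2 the number lower was 3, and the KLK10 call was among those lost (adjusted p = 0.0578).

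Genes of the cornified envelope were lower as well. SPRR1B (ENSG00000169469, chromosome 1, 153031202 to 153032900, GRCh38), a small proline-rich precursor of the envelope, stood at 0.28 and 0.488 CPM in Addback NA, against 29.3 and 57.1 CPM in B4-4 NA and 93.6 and 94.97 CPM in Vector NA (log2 fold change −6.78, SE 0.42, adjusted p = 5.67e-06). TGM1, the transglutaminase that cross-links the envelope, stood at 39.4 and 37.4 CPM in Addback NA, against 209.9 and 311 CPM in B4-4 NA and 518 and 513 CPM in Vector NA (log2 fold change −2.76, SE 0.16, adjusted p = 7.22e-07). Both genes kept the order of the derivatives in every library, with Addback NA lowest and Vector NA highest. SPRR1A had 3 and 2 counts in Addback NA against 56 and 27 in B4-4 NA, 18.2-fold (exact 95% interval 7.51 to 57.6) lower in Addback NA. SPRR2A had 1 and 2 counts in Addback NA against 104 and 26 in B4-4 NA, 47.6-fold (exact 95% interval 15.9 to 234) lower in Addback NA. Of 13 cornified envelope genes tested, 0 were higher and 8 lower, with a median of −2.07. The number lower was 5 without Addback NA 1, 4 without Addback NA 2 and 5 in the fit of these groups alone.

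Most of the keratins tested were lower, and 4 of 14 were not called. KRT16, a keratin of stressed and suprabasal skin, was lower at 19.5 and 17.7 CPM in Addback NA, against 134 and 124 CPM in B4-4 NA and 277 and 283 CPM in Vector NA (log2 fold change −2.80, SE 0.15, adjusted p = 4.83e-07). Its partner KRT6A was lower at 1053 and 982 CPM in Addback NA against 1852 and 2291 CPM in B4-4 NA (log2 fold change −1.03, SE 0.10, adjusted p = 4.25e-05), and the near-identical KRT6C differed by −1.06 (SE 0.17, adjusted p = 0.00121). KRT17, a basal keratin, was lower at 1072 and 935 CPM in Addback NA against 2563 and 3421 CPM in B4-4 NA (log2 fold change −1.58, SE 0.16, adjusted p = 5.16e-05). KRT8, a keratin of simple epithelia, was lower at 194 and 181 CPM in Addback NA against 575 and 478 CPM in B4-4 NA (log2 fold change −1.49, SE 0.23, adjusted p = 0.00206). In all, 10 of 14 keratins tested were lower and 0 higher, with a median of −1.27 and 6 lower without Addback NA 1. Some keratins and SPRR genes have near-identical relatives that may share reads, and KRT8 overlaps KRT18 on the other strand. Whether the related kallikreins share reads was not tested.

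Among 12 S100 calcium-binding proteins, 5 were lower and 3 higher, and 2 were lower without either Addback NA library. S100A8, a subunit of the inflammatory protein calprotectin, stood at 2.8 and 2.6 CPM in Addback NA, against 45.2 and 26.2 CPM in B4-4 NA and 74.6 and 79.3 CPM in Vector NA (log2 fold change −3.72, SE 0.39, adjusted p = 0.000312). S100P had 3 and 7 counts in Addback NA against 183 and 173 in B4-4 NA (log2 fold change −5.26, SE 0.66, adjusted p = 0.000525). In the other direction, S100A4, which binds non-muscle myosin and is linked to cell motility, stood at 138 and 147 CPM in Addback NA, against 22.4 and 14.2 CPM in B4-4 NA and 10.7 and 11.98 CPM in Vector NA (log2 fold change +2.96, SE 0.33, adjusted p = 0.000477). S100A3, whose gene overlaps that of S100A4 on the same strand, was higher too (log2 fold change +1.32, SE 0.27, adjusted p = 0.00592).

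Secreted defence and mucin genes were lower in 5 of 9 and higher in 0, with a median of −1.37. SLPI, an inhibitor of leukocyte proteases, stood at 114 and 118 CPM in Addback NA against 296 and 445 CPM in B4-4 NA (log2 fold change −1.68, SE 0.24, adjusted p = 0.00141). PI3, the elastase inhibitor elafin, stood at 6.32 and 6.23 CPM in Addback NA against 33.6 and 106 CPM in B4-4 NA (log2 fold change −3.48, SE 0.56, adjusted p = 0.00514), with adjusted p = 0.0515 without Addback NA 1. MUC16, a membrane mucin, had 3 and 1 counts in Addback NA against 503 and 192 in B4-4 NA, 191-fold (exact 95% interval 74.2 to 702) lower in Addback NA. The MUC16 call ended without Addback NA 1 (adjusted p = 0.0666), without Addback NA 2 (0.0632) and with group weights (0.0638). The list's number lower was 1 without Addback NA 1 and 2 without Addback NA 2.

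Other genes with the largest decreases came from several functions. CD24, a glycosylated surface protein, stood at 22.3 and 21.6 CPM in Addback NA, against 673 and 1005 CPM in B4-4 NA and 498 and 481 CPM in Vector NA (log2 fold change −5.26, SE 0.96, adjusted p = 0.0109), and its call was lost without Addback NA 1 (adjusted p = 0.0902) or Addback NA 2 (0.0776). AZGP1, a secreted glycoprotein, had 3 counts in each Addback NA library against 171 and 419 in B4-4 NA, 108-fold (exact 95% interval 49.3 to 296) lower in Addback NA. NIPAL4, which is mutated in the skin disorder ichthyosis, had 2 and 3 counts in Addback NA against 134 and 192 in B4-4 NA, 71.6-fold (exact 95% interval 30.4 to 222) lower in Addback NA. CRABP2, a carrier of retinoic acid, stood at 1.29 and 1.57 CPM in Addback NA against 28.6 and 20.3 CPM in B4-4 NA (log2 fold change −4.09, SE 0.22, adjusted p = 5.82e-07). KCNK6, a potassium channel, differed by −4.61 (SE 0.23, adjusted p = 4.34e-07). EPB41L4A, a membrane skeleton protein, differed by −4.59 (SE 0.25, adjusted p = 5.82e-07), and the scaffold gene GRIP1 by −3.86 (SE 0.29, adjusted p = 6.01e-06). STAP2, a signalling adaptor, differed by −3.74 (SE 0.28, adjusted p = 6.01e-06).

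OSBP2, an oxysterol-binding protein, stood at 13.9 and 11.5 CPM in Addback NA against 79.4 and 222 CPM in B4-4 NA (log2 fold change −3.57, SE 0.45, adjusted p = 0.00153). IQCN stood at 0.727 and 0.759 CPM in Addback NA against 71.8 and 14.2 CPM in B4-4 NA, where the replicates differed widely (log2 fold change −5.85, SE 1.10, adjusted p = 0.0111), and its call ended without Addback NA 1 (adjusted p = 0.0896), without Addback NA 2 (0.0757) and in the fit of these groups alone (0.0522). Among these genes, NIPAL4, EPB41L4A and GRIP1 overlap other tested genes on the opposite strand. Since the strand setting of the counting was not stated, reads of overlapping genes cannot be told apart.

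**Figure D3:**
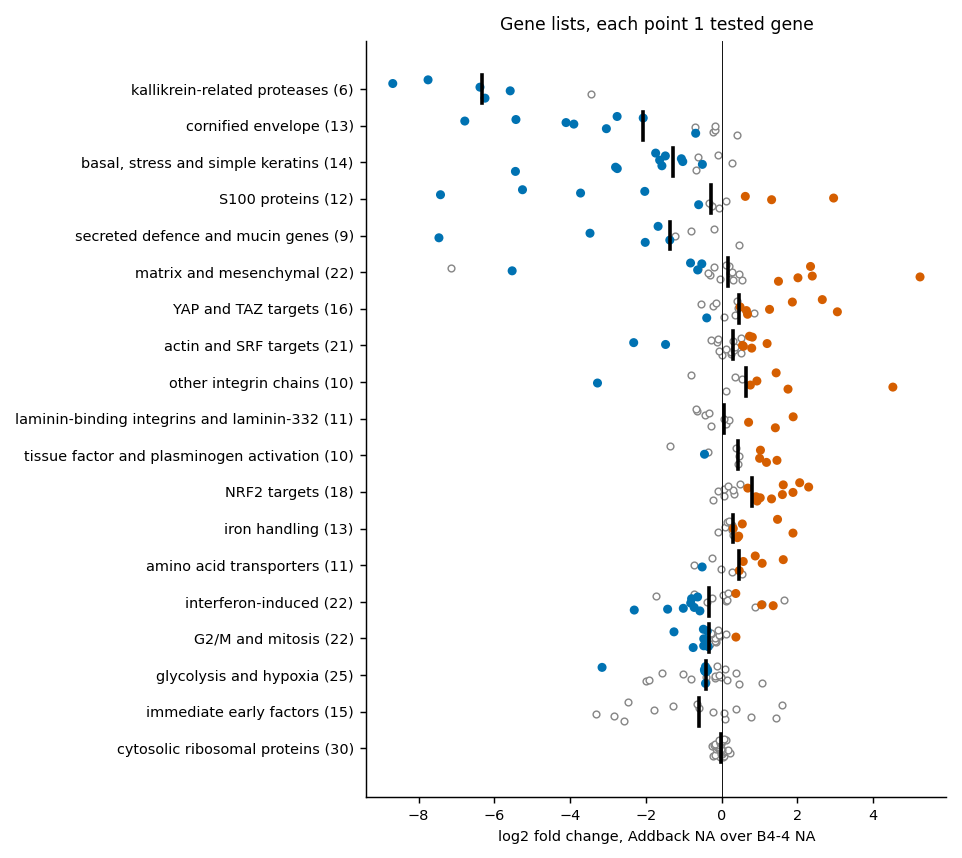
Log2 fold change of Addback NA over B4-4 NA for each tested gene of 19 lists; filled points were called (orange higher, blue lower), open points were not, and black bars are list medians. The medians run from −6.31 for the kallikreins to +0.80 for the NRF2 targets.

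The largest increases in Addback NA included several matrix genes. POSTN (ENSG00000133110, chromosome 13, 37562583 to 37598844, GRCh38), the matrix protein periostin, had 193 and 181 counts in Addback NA, against 1 and 5 in B4-4 NA and at most 0.112 CPM in Vector NA (log2 fold change +5.77, SE 0.48, adjusted p = 1.2e-05). The summed POSTN counts were 56.8-fold (exact 95% interval 25.8 to 156) higher in Addback NA, with an interval that covers counting error only. COL6A2 (ENSG00000142173, chromosome 21, 46098097 to 46132849, GRCh38), a chain of collagen VI, stood at 32.6 and 29.6 CPM in Addback NA, against 0.804 and 0.83 CPM in B4-4 NA and 0.28 and 0.514 CPM in Vector NA (log2 fold change +5.24, SE 0.25, adjusted p = 3.91e-07). COL6A1, its partner chain, stood at 39.7 and 39.3 CPM in Addback NA against 10.7 and 8.75 CPM in B4-4 NA (log2 fold change +2.02, SE 0.15, adjusted p = 5.67e-06). THBS1, the adhesive matrix protein thrombospondin 1, stood at 966 and 628 CPM in Addback NA, against 141 and 172 CPM in B4-4 NA and 78.9 and 80.01 CPM in Vector NA (log2 fold change +2.35, SE 0.17, adjusted p = 6.61e-06). COL8A1 was higher as well (log2 fold change +2.39, SE 0.28, adjusted p = 0.000498), as was COL18A1, the source of endostatin (log2 fold change +4.36, SE 0.26, adjusted p = 1.12e-06), which overlaps SLC19A1 on the other strand.

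Of 22 matrix and mesenchymal genes tested, 5 were higher in Addback NA, 4 were lower, and the median was +0.16. The list drew on genes already known to be raised in Addback, so its direction is no independent evidence. The number higher stayed within 1.5 times of 5 in every alternative other than the 2-fold minimum, while the number lower was 1 without either Addback NA library and 1 in the fit of these groups alone. Among 13 genes of the epithelial-mesenchymal transition, 3 were higher and 4 lower, with 0 lower without either Addback NA library and 5 higher without B4-4 NA 2. The counts of both lists stand beside 11.3% called higher and 12.3% called lower over all genes. The 2 transition genes named next are among the 3 higher, and the 4 lower are not named here. ZEB2, a repressor of epithelial genes, stood at 11.4 and 10.2 CPM in Addback NA against 2.53 and 1.02 CPM in B4-4 NA (log2 fold change +2.58, SE 0.37, adjusted p = 0.000507). CDH2, N-cadherin, stood at 53.6 and 51.4 CPM in Addback NA, against 21.9 and 15.2 CPM in B4-4 NA and 8.24 and 6.94 CPM in Vector NA (log2 fold change +1.496, SE 0.29, adjusted p = 0.00504).

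Of 8 fibroblast markers, 5 were tested and 2 were higher, POSTN and DCN. DCN, the proteoglycan decorin, stood at 18.97 and 19.3 CPM in Addback NA against 1.44 and 1.85 CPM in B4-4 NA (log2 fold change +3.54, SE 0.51, adjusted p = 0.00149), with adjusted p = 0.111 with group weights. The summed level of the 5 was 69.5 and 70.5 CPM in Addback NA, 22.7 and 62.2 CPM in B4-4 NA, and 26.5 and 24.3 CPM in Vector NA. The defining markers COL1A2, COL3A1 and PDGFRA had 5, 8 and 19 counts in all 12 libraries together. COL1A1 stood at 20.0 and 19.5 CPM in Addback NA and at 14.4 and 24.4 CPM in B4-4 NA. Of 5 leukocyte markers, CD14 alone was tested and was higher, with 54.6 and 47.5 CPM in Addback NA against 13.7 and 12.2 CPM in B4-4 NA, while CD3E had 0 counts and PTPRC 6 in all 12 libraries. Of 5 endothelial markers PECAM1 alone was tested and was not called, and 0 of 4 adipocyte markers reached the tested set. In bulk RNA a change in the share of cells of a type and a change in RNA per cell cannot be told apart. The part of other cell types in these results was not tested.

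The remaining genes with the largest increases included signalling, secreted and metabolic genes. CMKLR1 (ENSG00000174600, chromosome 12, 108288044 to 108339341, GRCh38), the receptor of chemerin, had 294 and 319 counts in Addback NA against 1 and 0 in B4-4 NA, 558-fold (exact 95% interval 99.8 to 22080) higher by counting error alone. AKR1B1, aldose reductase, stood at 2609 and 2695 CPM in Addback NA, against 159 and 232 CPM in B4-4 NA and 144 and 144 CPM in Vector NA (log2 fold change +3.76, SE 1.03, adjusted p = 0.0427). The AKR1B1 libraries of these groups did not overlap, but this was a condition of its choice and held for 59.6% of all genes tested. The AKR1B1 call ended without any of 10 libraries, with no filter on low counts, with group weights and with the replicate block. It held without Addback EDTA 1 or 2, which lie outside this contrast. With single libraries left out, the AKR1B1 log2 fold change was +3.53 to +4.05. S1PR1, a receptor of sphingosine 1-phosphate, stood at 30.2 and 25.7 CPM in Addback NA against 1.61 and 2.94 CPM in B4-4 NA (log2 fold change +3.63, SE 0.60, adjusted p = 0.00349). SRGN, the proteoglycan serglycin, stood at 28.6 and 25.9 CPM in Addback NA against 1.67 and 1.79 CPM in B4-4 NA (log2 fold change +3.98, SE 0.20, adjusted p = 4.34e-07). PDE3B, a phosphodiesterase of cyclic nucleotides, differed by +4.52 (SE 0.42, adjusted p = 2.55e-05). MIR29B2CHG, the host transcript of miR-29 family members, differed by +3.93 (SE 0.40, adjusted p = 7.11e-05).

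CADM3, a cell adhesion molecule that overlaps ACKR1 on the same strand, differed by +4.33 (SE 0.57, adjusted p = 0.00101). CCDC102B, which overlaps TMX3 on the other strand, differed by +4.27 (SE 0.40, adjusted p = 3.06e-05). RIPOR2 stood at 17.7 and 18.1 CPM in Addback NA against 1.72 and 0.383 CPM in B4-4 NA (log2 fold change +4.05, SE 0.61, adjusted p = 0.00225), with adjusted p = 0.0635 with group weights. CAPN8, a calpain protease, stood at 19.3 and 17.02 CPM in Addback NA against 1.15 and 1.09 CPM in B4-4 NA (log2 fold change +4.01, SE 1.01, adjusted p = 0.0266). The CAPN8 call ended without any of 8 libraries, with no filter on low counts and with group weights. Those 8 did not include the Addback EDTA or Vector EDTA libraries. With single libraries left out, the CAPN8 log2 fold change was +3.92 to +4.10.

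Vector NA is given beside these values as a further derivative. CMKLR1, POSTN and COL6A2 stood at most at 0.514 CPM in Vector NA, and AKR1B1 at 144 and 144 CPM. The comparisons of Addback NA with Vector NA and with B4-4 NA share the Addback NA libraries, so their values are given side by side only. Against Vector NA, 5681 genes (36.1%) were called in Addback NA, and between B4-4 NA and Vector NA 1128 genes (7.16%) were called, 3.38% higher and 3.78% lower. In Addback NA against Vector NA, 17.9% were higher and 18.1% lower. For ITGB4 itself the order was Vector NA, Addback NA and B4-4 NA from high to low, whereas for KLK7, SPRR1B, TGM1 and KRT16 Addback NA was farthest from Vector NA.

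Targets of YAP and TAZ, co-activators of the TEAD transcription factors that respond to adhesion and cell tension, were higher in 7 of 16 and lower in 1, with a median of +0.46. CCN2 (ENSG00000118523, chromosome 6, 131948176 to 131951373, GRCh38), a matricellular protein and standard readout of YAP, stood at 39.3 and 34.3 CPM in Addback NA, against 5.28 and 3.51 CPM in B4-4 NA and 2.58 and 4.06 CPM in Vector NA (log2 fold change +3.06, SE 0.23, adjusted p = 6.01e-06). NUAK2, a kinase that feeds back on YAP, stood at 23.7 and 18.1 CPM in Addback NA against 7.23 and 4.15 CPM in B4-4 NA (log2 fold change +1.87, SE 0.32, adjusted p = 0.00219). TGFB2, a ligand of the TGF-beta family, stood at 3.69 and 4.01 CPM in Addback NA against 0.631 and 0.575 CPM in B4-4 NA (log2 fold change +2.66, SE 0.47, adjusted p = 0.00194), with adjusted p = 0.0564 with group weights. DLC1, a GTPase-activating protein, was higher too (log2 fold change +1.27, SE 0.23, adjusted p = 0.00226).

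RefSeq held a 300-base promoter window (GRCh38.p14) for 13 of the 16 YAP and TAZ genes. The TEAD core CATTCC, on either strand, was in 5 of these 13 windows and in 4928 of 35116 windows of the same length. Of the 5 higher genes with a window, 3 held it, and their windows are printed because these 3 targets were higher together; capitals mark CATTCC or its reverse complement GGAATG, and each sequence is on its gene's strand.
CCN2 (chr6:131951323-131951622, minus strand): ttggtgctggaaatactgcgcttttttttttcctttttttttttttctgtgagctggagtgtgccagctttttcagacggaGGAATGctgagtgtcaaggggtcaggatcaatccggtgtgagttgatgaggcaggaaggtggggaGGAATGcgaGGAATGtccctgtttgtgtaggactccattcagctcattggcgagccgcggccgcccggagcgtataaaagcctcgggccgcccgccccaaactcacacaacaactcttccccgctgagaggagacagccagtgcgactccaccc
NUAK2 (chr1:205321696-205321995, minus strand): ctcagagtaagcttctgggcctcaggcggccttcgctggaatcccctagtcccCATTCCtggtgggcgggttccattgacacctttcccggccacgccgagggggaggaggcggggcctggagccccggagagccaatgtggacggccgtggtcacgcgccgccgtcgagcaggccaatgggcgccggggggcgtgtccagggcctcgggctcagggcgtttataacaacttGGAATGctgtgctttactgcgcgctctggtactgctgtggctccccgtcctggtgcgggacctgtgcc
TGFB2 (chr1:218345086-218345385, plus strand): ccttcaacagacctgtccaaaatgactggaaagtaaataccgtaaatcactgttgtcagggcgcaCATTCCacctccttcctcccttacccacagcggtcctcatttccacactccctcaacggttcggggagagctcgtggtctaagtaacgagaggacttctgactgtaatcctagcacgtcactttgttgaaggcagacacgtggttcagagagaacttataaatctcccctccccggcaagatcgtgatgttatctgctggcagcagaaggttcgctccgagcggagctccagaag
The CCN2 window held 3 matches, all of them upstream of the start, the NUAK2 window 2 and the TGFB2 window 1. A match describes the letters of the window and not a bound site.

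Integrin chains outside the laminin-binding group were higher in 5 of 10 and lower in 1, with a median of +0.65 and 3 higher without Addback NA 1 or with group weights. ITGA5, the fibronectin receptor chain, stood at 542 and 511 CPM in Addback NA against 236 and 316 CPM in B4-4 NA (log2 fold change +0.93, SE 0.12, adjusted p = 0.000296). ITGA2, a collagen receptor chain, stood at 271 and 232 CPM in Addback NA against 151 and 146 CPM in B4-4 NA (log2 fold change +0.76, SE 0.10, adjusted p = 0.000381). ITGA10, another collagen receptor chain, stood at 53.1 and 54.1 CPM in Addback NA against 18.4 and 13.3 CPM in B4-4 NA (log2 fold change +1.75, SE 0.18, adjusted p = 4.43e-05). The chain that was lower, ITGA4, had 5 and 10 counts in Addback NA, against 42 and 90 in B4-4 NA and 5 and 7 in Vector NA (log2 fold change −3.28, SE 0.49, adjusted p = 0.000691).

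Actin and SRF targets were higher in 6 of 21 and lower in 2, with 13 higher without B4-4 NA 2 and 0 lower without any single library of Addback NA, B4-4 EDTA or either Vector group, or without B4-4 NA 2. SRF, the serum response factor itself, stood at 188 and 149.5 CPM in Addback NA against 74.6 and 72.05 CPM in B4-4 NA (log2 fold change +1.20, SE 0.12, adjusted p = 3.71e-05). VCL, vinculin of focal adhesions, stood at 479 and 410.0 CPM in Addback NA against 236 and 271 CPM in B4-4 NA (log2 fold change +0.81, SE 0.12, adjusted p = 0.000815). FHL2 (log2 fold change +0.79, SE 0.16, adjusted p = 0.00499) and the myosin light chain MYL12A (log2 fold change +0.55, SE 0.11, adjusted p = 0.00501) were higher too, with adjusted p = 0.0562 for MYL12A when these groups were fitted alone. Among 10 genes of tissue factor and plasminogen activation, 4 were higher and 1 lower, and 2 were higher without either Addback NA library or without B4-4 NA 1. PLAT, tissue plasminogen activator, stood at 174 and 172 CPM in Addback NA against 77.7 and 74.4 CPM in B4-4 NA (log2 fold change +1.19, SE 0.17, adjusted p = 0.000547). PLAUR, the urokinase receptor, stood at 105 and 79.8 CPM in Addback NA against 47.4 and 44.9 CPM in B4-4 NA (log2 fold change +1.004, SE 0.18, adjusted p = 0.00282). List counts in this paragraph stand beside 11.3% called higher and 12.3% called lower over all genes. Of 17 TGF-beta, BMP and activin genes, 4 were higher and 1 lower, with 2 higher without either Addback NA library, and ID1, a BMP target, stood at 71.4 and 97.8 CPM in Addback NA against 29.2 and 15.7 CPM in B4-4 NA (log2 fold change +1.91, SE 0.27, adjusted p = 0.000951).

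Cell junction genes were called in both directions, in small lists to be read beside the 11.3% higher and 12.3% lower over all genes. Of 12 tight junction genes, 3 were higher and 3 lower, with 5 lower without either Addback EDTA library. The scaffold TJP1 stood at 318 and 275 CPM in Addback NA against 181 and 172 CPM in B4-4 NA (log2 fold change +0.75, SE 0.11, adjusted p = 0.000573). TJP3, a scaffold of the same family, stood at 3.69 and 4.12 CPM in Addback NA against 14.8 and 11.8 CPM in B4-4 NA (log2 fold change −1.77, SE 0.25, adjusted p = 0.000504). MARVELD2, tricellulin of tricellular junctions, was higher (log2 fold change +0.78, SE 0.11, adjusted p = 0.000383). Of 9 desmosome genes, 2 were higher and 2 lower, among them the desmocollins DSC3 (log2 fold change +0.91, SE 0.11, adjusted p = 0.000166) and DSC2 (log2 fold change −1.11, SE 0.19, adjusted p = 0.0021), which moved oppositely, and PKP2 (higher) and PERP (lower). Each desmosome count was 1 without either Addback NA library.

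Among 6 cadherins and catenins, 2 were lower and 0 higher, namely CDH1 (E-cadherin) and CDH3 (P-cadherin), and 1 was lower without either Addback NA library. CDH3 stood at 400.0 and 361 CPM in Addback NA against 592 and 765 CPM in B4-4 NA (log2 fold change −0.83, SE 0.14, adjusted p = 0.00172). Of 6 nectin genes, 2 were lower and 0 higher, and neither nectin call was made without an Addback NA library. The other call was in NECTIN2. Both lists are small, and 12.3% of all genes tested were called lower. NECTIN4 stood at 7.22 and 8.62 CPM in Addback NA against 19.9 and 17.7 CPM in B4-4 NA (log2 fold change −1.25, SE 0.35, adjusted p = 0.0267), and its call was lost without any of 6 libraries (adjusted p up to 0.164).

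Targets of NRF2, the transcription factor of the antioxidant response, were higher in 10 of 18 and lower in 0, with a median of +0.80, and the number higher stayed within 1.5 times of 10 in every alternative other than the 2-fold minimum. TXNRD1 (ENSG00000198431, chromosome 12, 104215779 to 104350305, GRCh38), thioredoxin reductase, stood at 578 and 453 CPM in Addback NA, against 116 and 131 CPM in B4-4 NA and 80.5 and 82.01 CPM in Vector NA (log2 fold change +2.06, SE 0.20, adjusted p = 8.25e-05). GCLC, the catalytic subunit of the first step of glutathione synthesis, stood at 296 and 257 CPM in Addback NA, against 84.9 and 96.96 CPM in B4-4 NA and 71.9 and 67.8 CPM in Vector NA (log2 fold change +1.60, SE 0.12, adjusted p = 4.84e-06). NQO1, a quinone reductase, stood at 537 and 542 CPM in Addback NA, against 326 and 342 CPM in B4-4 NA and 187 and 189.5 CPM in Vector NA (log2 fold change +0.69, SE 0.08, adjusted p = 0.000166). In these 3 genes B4-4 NA lay between Addback NA and Vector NA in every library. AKR1C1, an aldo-keto reductase with close paralogs that may share reads, was higher (log2 fold change +1.32, SE 0.12, adjusted p = 2.28e-05). OSGIN1, an oxidative stress gene named after its values were seen, stood at 31.7 and 23.03 CPM in Addback NA against 5.05 and 6.07 CPM in B4-4 NA (log2 fold change +2.30, SE 0.29, adjusted p = 0.000248).

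The antioxidant response core TGACNNNGC, searched after these values were seen and on either strand, was in 4 of the 14 NRF2 windows at hand and in 13.3% of all windows. Among the 8 higher genes with a window it was in 1, TXNRD1, which is printed as that exception with both matches in capitals.
TXNRD1 (chr12:104215529-104215828, plus strand): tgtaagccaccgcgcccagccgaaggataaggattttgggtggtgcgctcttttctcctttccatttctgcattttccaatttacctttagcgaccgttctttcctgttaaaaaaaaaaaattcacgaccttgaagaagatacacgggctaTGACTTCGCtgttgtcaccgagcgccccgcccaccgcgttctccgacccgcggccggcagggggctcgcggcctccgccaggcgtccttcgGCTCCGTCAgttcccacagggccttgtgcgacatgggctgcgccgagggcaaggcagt
The 7 other higher genes had no match in these letters, which covers this window only.

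SLC7A11, the cystine importer of the glutathione pathway, belongs to the NRF2 and amino acid lists and stood at 170.2 and 132 CPM in Addback NA, against 43.98 and 53.97 CPM in B4-4 NA and 134 and 133 CPM in Vector NA (log2 fold change +1.63, SE 0.16, adjusted p = 4.6e-05). Of 13 genes of iron handling, 6 were higher and 0 lower, with a median of +0.29, and 2 were higher without Addback NA 1 or when these groups were fitted alone. TFRC, the transferrin receptor, stood at 703 and 688 CPM in Addback NA, against 296 and 203 CPM in B4-4 NA and 96.2 and 92.6 CPM in Vector NA (log2 fold change +1.48, SE 0.14, adjusted p = 2.92e-05). The iron transporter SLC11A2 differed by +0.55 (SE 0.10, adjusted p = 0.0028). Of 14 ferroptosis regulators, 2 were higher (SLC7A11 and GCH1) and 3 lower (SLC3A2, ACSL4 and PROM2), and 1 was lower without either Addback NA library. The ferroptosis counts are to be read beside the 11.3% higher and 12.3% lower over all genes. PROM2, a membrane protein linked to export of ferritin, was lower at 5.15 and 4.23 CPM in Addback NA, against 13.6 and 15.8 CPM in B4-4 NA and 40.4 and 40.8 CPM in Vector NA (log2 fold change −1.65, SE 0.16, adjusted p = 3.06e-05).

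Amino acid transporters were higher in 5 of 11 and lower in 1, with 2 higher without Addback NA 1 and 1 when these groups were fitted alone. Of 10 genes of serine and one-carbon synthesis, 4 were higher and 0 lower, with 2 higher without either Addback NA library and 1 when these groups were fitted alone. PHGDH, the first enzyme of serine synthesis, stood at 177 and 172 CPM in Addback NA, against 76.4 and 103 CPM in B4-4 NA and 148 and 149 CPM in Vector NA (log2 fold change +0.96, SE 0.15, adjusted p = 0.000848). PSAT1, the next enzyme, stood at 282 and 273 CPM in Addback NA, against 161 and 204 CPM in B4-4 NA and 344 and 336 CPM in Vector NA (log2 fold change +0.60, SE 0.11, adjusted p = 0.00243), with adjusted p = 0.0568 when these groups were fitted alone. Of 13 ATF4 and CHOP stress genes, 0 were higher and 2 lower, but 7 were lower without B4-4 NA 2. The share lower over all genes was 12.3%. The lower genes of this list were VLDLR and CEBPB, and CEBPB stood at 38.4 and 43.7 CPM in Addback NA against 99.4 and 66.7 CPM in B4-4 NA (log2 fold change −1.02, SE 0.16, adjusted p = 0.00109).

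Cytosolic heat shock chaperones were split, with 4 of 16 higher and 6 lower, and 1 lower without either Addback NA library. This count and the others of this paragraph stand beside 11.3% called higher and 12.3% called lower over all genes. BAG3, a co-chaperone of HSP70, stood at 259.7 and 262 CPM in Addback NA against 129 and 165 CPM in B4-4 NA (log2 fold change +0.83, SE 0.11, adjusted p = 0.00032). HSPA1A, an inducible HSP70 that may share reads with HSPA1B, differed by +0.67 (SE 0.10, adjusted p = 0.000525). HSPB8, a small heat shock protein, had 3 counts in each Addback NA library against 28 in each B4-4 NA library, 10.2-fold (exact 95% interval 4.43 to 29.1) lower in Addback NA. Chaperones of the endoplasmic reticulum gave 0 calls among 18 genes in edgeR's quasi-likelihood test (3 at an unadjusted p under 0.05) and 0 with DESeq2, with CANX, calnexin, at 1429 and 1405 CPM in Addback NA and 1495 and 1371 CPM in B4-4 NA (log2 fold change −0.02, SE 0.10, adjusted p = 0.927). Of 8 genes of the aryl hydrocarbon receptor, 2 were higher, NQO1 and CYP1B1. CYP1B1, an oxidase it induces, stood at 450.2 and 466 CPM in Addback NA, against 156 and 177 CPM in B4-4 NA and 36.1 and 36.04 CPM in Vector NA (log2 fold change +1.46, SE 0.29, adjusted p = 0.0081). The CYP1B1 call ended without B4-4 NA 1 (adjusted p = 0.0686), and without either Addback EDTA library 5 genes of that list were higher. The core GCGTG of this receptor was in 5 of the 6 windows at hand and in 36.5% of all windows. No window was at hand for CYP1B1. Of the 6 genes with a window, NQO1 alone was called higher, and the others were not called.

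Secreted signals were called in both directions, at shares to be read beside the 11.3% higher and 12.3% lower over all genes. Of 24 interleukins, colony-stimulating factors and chemokines, 5 were higher and 3 lower, with 3 higher without Addback NA 1, 9 higher without B4-4 NA 1 and 1 lower without either Addback NA library. CCL2, a monocyte chemokine, stood at 50.2 and 50.3 CPM in Addback NA against 0.517 and 0.575 CPM in B4-4 NA (log2 fold change +6.51, SE 1.75, adjusted p = 0.0402). The CCL2 libraries of these groups did not overlap, but this was a condition of its choice and held for 59.6% of all genes tested. The CCL2 call ended without any of 10 libraries, with no filter on low counts (adjusted p = 0.0806) and with group weights (adjusted p = 0.417). It held without Addback EDTA 1 or 2, which lie outside this contrast. With single libraries left out, the CCL2 log2 fold change was +6.45 to +6.58. CXCL10, an interferon-induced chemokine whose gene overlaps ART3 on the other strand, stood at 15.4 and 14.6 CPM in Addback NA against 0.861 and 0.766 CPM in B4-4 NA (log2 fold change +4.19, SE 0.57, adjusted p = 0.000605). CSF1, the macrophage growth factor, stood at 75.98 and 85.3 CPM in Addback NA against 19.2 and 10.3 CPM in B4-4 NA (log2 fold change +2.44, SE 0.23, adjusted p = 4.28e-05). LIF, a cytokine of the interleukin 6 family, was higher (log2 fold change +2.34, SE 0.21, adjusted p = 2.21e-05), and IL1RN, the antagonist of interleukin 1, was lower (log2 fold change −1.83, SE 0.19, adjusted p = 6.58e-05).

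Interferon-induced genes were higher in 3 of 22 and lower in 8, with 1 higher and 3 lower without Addback NA 1, and 1 higher and 4 lower without Addback NA 2. IFITM3, an antiviral membrane protein, stood at 312 and 327 CPM in Addback NA against 543 and 582 CPM in B4-4 NA (log2 fold change −0.82, SE 0.11, adjusted p = 0.000485). IFI44 was lower (log2 fold change −1.43, SE 0.26, adjusted p = 0.00251), while IFIT3, which overlaps LIPA on the other strand, was higher (log2 fold change +1.06, SE 0.19, adjusted p = 0.00238). Of 10 EGFR family genes and ligands, 3 were higher (EGFR, EREG and NRG1) and 2 lower, with 0 higher without either Addback NA library. AREG, amphiregulin, stood at 19.9 and 25.9 CPM in Addback NA, against 159 and 63.9 CPM in B4-4 NA and 409 and 411 CPM in Vector NA (log2 fold change −2.28, SE 0.37, adjusted p = 0.00443), with adjusted p = 0.0536 when these groups were fitted alone. The AREG difference was −1.47 without B4-4 NA 1 and −2.80 without B4-4 NA 2. EPGN, epigen, stood at 22.8 and 23.8 CPM in Addback NA, against 63.96 and 56.97 CPM in B4-4 NA and 154 and 158 CPM in Vector NA (log2 fold change −1.38, SE 0.13, adjusted p = 3.02e-05). Of 12 Notch pathway genes, 2 were higher (JAG1 and HEY2) and 1 lower (NRARP), beside 11.3% higher and 12.3% lower over all genes. The ligand JAG1 stood at 178 and 161 CPM in Addback NA against 75.7 and 99.4 CPM in B4-4 NA (log2 fold change +0.95, SE 0.12, adjusted p = 0.000239).

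Mitotic genes were lower in 11 of 22 and higher in 1, with a median of −0.33, but 2 were lower without Addback NA 1 or when these groups were fitted alone, and 3 without Addback NA 2. PLK1, a kinase of mitotic entry, stood at 65.5 and 63.8 CPM in Addback NA, against 140.0 and 169 CPM in B4-4 NA and 235 and 229 CPM in Vector NA (log2 fold change −1.26, SE 0.10, adjusted p = 9.72e-06). AURKA, Aurora kinase A, stood at 63.95 and 68.8 CPM in Addback NA against 95.2 and 128 CPM in B4-4 NA (log2 fold change −0.75, SE 0.13, adjusted p = 0.00174). Genes of the G1/S transition and DNA replication were higher in 3 of 22 and lower in 3, with 0 in each direction without Addback NA 1 and 1 in each without Addback NA 2, beside 11.3% higher and 12.3% lower over all genes. Of 17 p53 targets, 0 were higher and 1 lower (TP53I3), with 3 higher without B4-4 NA 1 and 4 lower without B4-4 NA 2. BCL2 family genes were higher in 2 of 15 and lower in 4, with 0 in each direction without either Addback NA library. Cytosolic ribosomal proteins gave 0 calls among 30 in edgeR's quasi-likelihood test (0 at an unadjusted p under 0.05), 0 with DESeq2 and 0 in every other alternative, with RPS6 at 3383 and 3863 CPM in Addback NA and 3348 and 3279 CPM in B4-4 NA (log2 fold change +0.13, SE 0.09, adjusted p = 0.325).

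The next lists cover pyruvate dehydrogenase, cholesterol, fatty acid, respiratory chain and proteasome genes. Each of their counts is to be read beside the 11.3% higher and 12.3% lower over all genes. PDP1, which activates pyruvate dehydrogenase, stood at 189.9 and 142 CPM in Addback NA against 43.6 and 75.6 CPM in B4-4 NA (log2 fold change +1.48, SE 0.23, adjusted p = 0.00145), the call of 1 of 6 genes in its list. Of 21 cholesterol genes, 1 was higher and 3 lower, with 7 lower without B4-4 NA 2 or without either Addback EDTA library, and HMGCS1, an early enzyme of the pathway, stood at 178 and 167 CPM in Addback NA against 418 and 295 CPM in B4-4 NA (log2 fold change −1.05, SE 0.20, adjusted p = 0.00489). Of 15 fatty acid and lipid synthesis genes, 2 were higher and 2 lower, with 1 in each direction without either Addback NA library. FADS2, a desaturase whose gene overlaps FEN1 and FADS1, differed by −0.88 (SE 0.14, adjusted p = 0.00118), and ACSS2, which makes acetyl-CoA from acetate, by +0.63 (SE 0.11, adjusted p = 0.00165). Respiratory chain genes were lower in 6 of 26 and higher in 0, with 0 lower without Addback NA 1, 1 without Addback NA 2 and 0 when these groups were fitted alone. Proteasome genes were lower in 4 of 24, with 13 lower without B4-4 NA 1, 0 without either Addback NA library and 1 under upper-quartile scaling.

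For glycolysis and the immediate early factors the B4-4 NA libraries disagreed with each other. Of 25 glycolysis and hypoxia genes, 0 were higher and 7 lower, but 18 were lower without B4-4 NA 2, whereas 8 were higher and 2 lower without B4-4 NA 1. Without Addback NA 1, 2 were lower, without Addback NA 2, 1 was lower, and with these groups fitted alone, 0 were lower. PGK1, a glycolytic kinase named after its values were seen, stood at 596 and 611 CPM in Addback NA and at 960.0 and 694 CPM in B4-4 NA (log2 fold change −0.45, SE 0.12, adjusted p = 0.0199), and its call was lost without Addback NA 1 (adjusted p = 0.126), Addback NA 2 (0.0853) or B4-4 NA 1 (0.107). The PGK1 difference was −0.19 when B4-4 NA 1 was left out, and −0.44 or −0.48 with either Addback NA library left out. PFKP, a phosphofructokinase, differed by −0.44 (SE 0.08, adjusted p = 0.00309), with adjusted p = 0.0646 when these groups were fitted alone. The list's median log2 ratio of replicate 1 over replicate 2, on CPM + 0.5, was −0.08 in Addback NA, +0.82 in B4-4 NA and −0.02 in Vector NA.

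Immediate early transcription factors, which respond within minutes to growth factors and stress, gave 0 calls among 15 genes in edgeR's quasi-likelihood test (3 at an unadjusted p under 0.05), 4 with DESeq2 and 1 with group weights. EGR1 stood at 391 and 578 CPM in Addback NA and at 876 and 32.6 CPM in B4-4 NA, so the Addback libraries lay between the B4-4 libraries (log2 fold change +0.09, SE 1.25, adjusted p = 0.967). FOSB, which overlaps ERCC1 on the other strand, stood at 65.5 and 79.2 CPM in Addback NA and at 1323 and 123 CPM in B4-4 NA (log2 fold change −3.32, SE 1.38, adjusted p = 0.138), and its difference was −0.75 without B4-4 NA 1. Between the B4-4 NA replicates 14 of the 15 differed at least 2-fold, with a median log2 ratio of +2.17, against 0 of 15 in Addback NA and 0 of 15 in Vector NA. Without B4-4 NA 1, 7 of the 15 were called higher in Addback NA, and without B4-4 NA 2, 6 were called lower and 1 higher. Of 13 ERK feedback genes, 8 were at least 2-fold apart between the B4-4 NA replicates. DUSP5 and SPRY4, feedback inhibitors of this pathway, were called higher in Addback NA, while 6 genes were higher without B4-4 NA 1 and 0 without either Addback NA library.

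**Figure D4:**
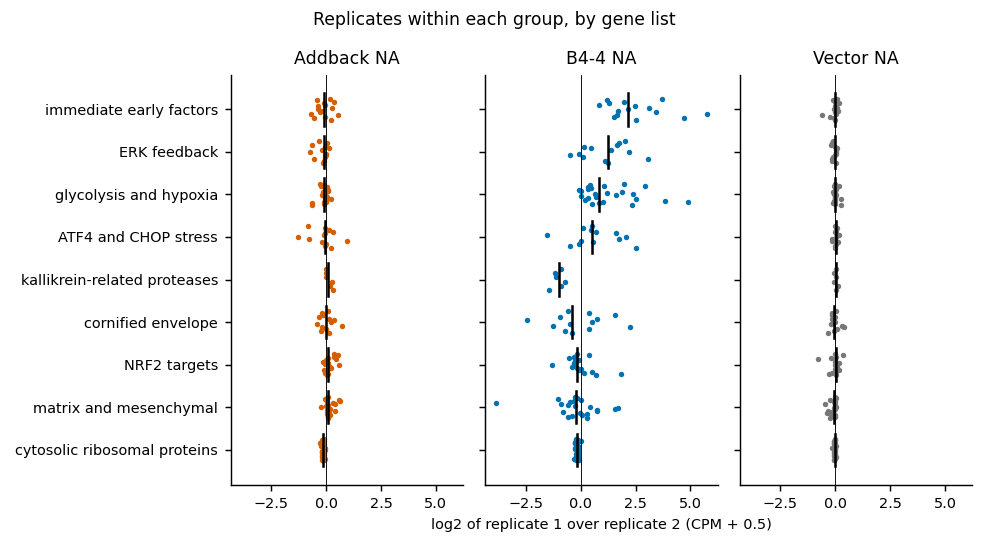
Log2 ratio of replicate 1 over replicate 2 (CPM + 0.5) within Addback NA, B4-4 NA and Vector NA for 9 lists; points are genes and black bars are medians. The immediate early factors center on +2.17 in B4-4 NA, while the Addback NA and Vector NA medians of all 9 lists lie near 0.

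The same contrast between derivatives was made under the EDTA label, where 2217 genes (14.1%) were called, 6.54% higher and 7.54% lower, and the difference of the 2 contrasts was tested for each gene. That difference was called for 1383 genes (8.78%), 664 (4.22%) in the positive and 719 (4.57%) in the negative direction, and for 403 without Addback NA 1 and 2994 without B4-4 NA 1. Genes named here were picked by their difference under NA, so the direction of their change with EDTA is no independent evidence. THBS1 differed between Addback and B4-4 by −1.25 under EDTA and by +2.35 under NA (EDTA minus NA −3.60, SE 0.24, adjusted p = 1.46e-05). CCN2 differed by −0.12 under EDTA and by +3.06 under NA (EDTA minus NA −3.18, SE 0.31, adjusted p = 0.000172). TGM1 differed by +0.11 under EDTA and by −2.76 under NA (EDTA minus NA +2.87, SE 0.21, adjusted p = 1.87e-05), and TFRC by +0.003 under EDTA and by +1.48 under NA (EDTA minus NA −1.47, SE 0.19, adjusted p = 0.000922). These 4 tests held without any single library. For ITGB4 the derivatives differed by +1.87 under EDTA and by +1.89 under NA (difference −0.02, SE 0.40, adjusted p = 0.985).

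**Figure D5:**
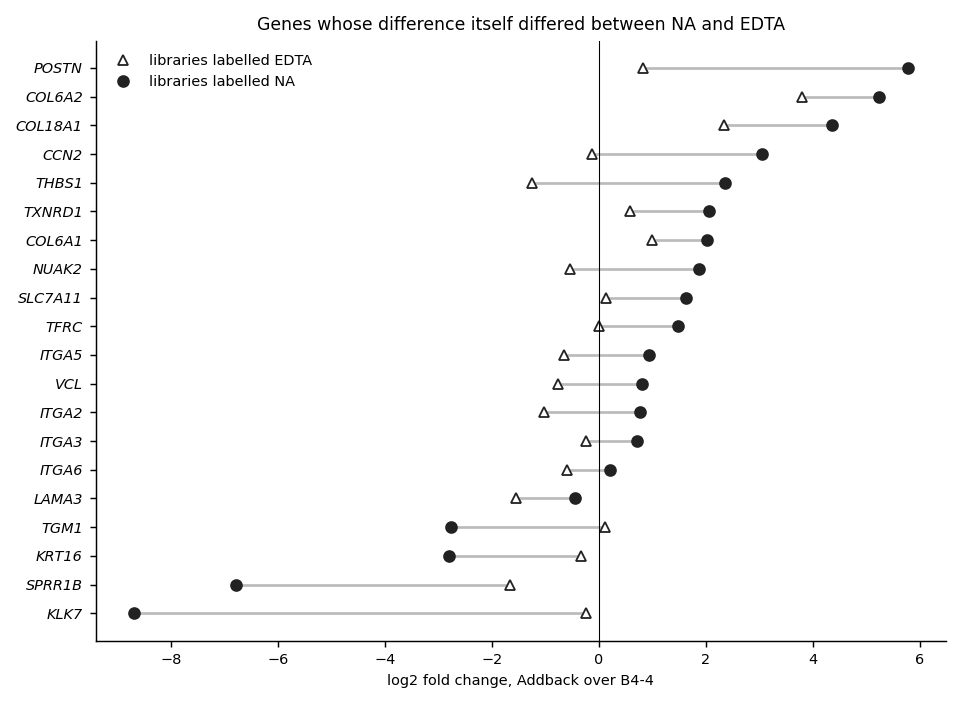
Log2 fold change of Addback over B4-4 under EDTA (open triangles) and under NA (filled circles) for 20 genes described in the text whose 2 differences were called apart. Most were named for their difference under NA, by its size or by the smallest p within a list. CCN2, TFRC, TGM1 and KLK7 lie near 0 under EDTA.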

How the data were processed

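Per the labels' protocols, stranded libraries of polyA RNA were read as 150 bp pairs. The authors deposited unnormalised integer counts for Ensembl genes. The submitters' processing notes name TopHat2 2.1.1, SAMtools 1.4.1, featureCounts 1.5.3 and the builds GRCh38, hg19 and hg38, with no role for each. The sources used here give neither the annotation release nor the strand setting. Symbols matched 57392 of 58233 identifiers, and GENCODE coordinates on GRCh38 were found for 15706 of 15749 tested genes. Promoter windows are RefSeq's on GRCh38.p14.

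The counts were filtered with filterByExpr, scaled with TMM and fitted by group in edgeR 4.0.16 (R 4.3.3), using the 12 libraries together and robust dispersions. A standard error is the absolute log2 fold change over the root of F. The alternatives were RLE or upper-quartile scaling, no filter, DESeq2 1.42.0, limma 3.58.1 (voom with a quality weight per group), a replicate block, the compared groups alone, a test beyond 2-fold and leaving out each library. Intervals of count ratios are exact at 95% and cover counting error only. The steps were tested on simulated counts that gave every group the same spread per gene. That test does not cover the unequal spread within Addback NA and B4-4 NA.

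Same-numbered Addback NA and B4-4 NA libraries deviated together with r = 0.046 over 10632 genes, so the numbers were not taken as pairs. The members and gene lists were chosen with earlier results of these data known. The text names ITGB4, ITGA6, NECTIN4 and PROM2, the 15 largest called log2 fold changes in each direction among genes averaging 5 CPM or more with libraries that did not overlap, and from each list up to 4 called members with the smallest p, or up to 2 of the most abundant where none was called. LAMA3, LAMB3, OSGIN1, PGK1 and other members named without a fold change or as markers were added after their values were seen, as was the motif TGACNNNGC. Some genes that meet these rules are not reported here.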

Additional observations from a re-analysis of the deposited data

Results flagged for a closer look

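For 62 of the genes named in the text, the difference between Addback and B4-4 under EDTA was called apart from that under NA. The test was edgeR's quasi-likelihood test of the interaction (Benjamini-Hochberg adjusted p under 0.05). The count of 62 was made over 110 named genes called and 7 not called under NA. Other genes named in the text, such as KRT5, TP63 and CD14, were outside it. Over all genes tested, this difference was called for 1383 of 15749 (8.78%). Each value is the log2 difference of Addback over B4-4 under EDTA minus that under NA. These genes were named largely for their differences under NA, so the direction of the values is no independent evidence.

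Of the 62, 36 kept the call without each of the 12 libraries in turn. Those with a positive value were TGM1 +2.87, KRT16 +2.47, CRABP2 +2.74, SPRR1B +5.13, EPGN +1.49, S100A8 +4.71, TJP3 +2.78, S100P +6.79, ACSS2 +1.12, EPB41L4A +2.36, KLK5 +6.38, IFITM3 +0.97 and PROM2 +1.27. Those with a negative value were THBS1 −3.60, ITGA2 −1.79, CCN2 −3.18, JAG1 −1.59, ITGA5 −1.59, MARVELD2 −1.37, VCL −1.57, SRF −1.49, LIF −2.56, TJP1 −1.20, POSTN −4.95, GCLC −1.25, TFRC −1.47, DSC3 −1.10, HSPA1A −0.93, PLAUR −1.82, BAG3 −1.01, SLC7A11 −1.49, OSGIN1 −2.72, FHL2 −1.45, CSF1 −1.86, ITGA3 −0.96 and NUAK2 −2.40. For THBS1, ITGA2, ITGA5, JAG1, MARVELD2, PLAUR, TJP1, TJP3, S100P, VCL and FHL2 the derivatives were called apart in opposite directions under EDTA and under NA.

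The other 26 lost the call without some library. Positive values were found for CYP1B1 +2.65, SPRR1A +3.37, KLK8 +8.31, KLK7 +8.44, MUC16 +8.20, KLK10 +6.87, AZGP1 +5.75, RPS6 +0.48, HMGCS1 +1.13, OSBP2 +2.42, IQCN +6.82, KRT17 +0.78 and CEBPB +0.79. Negative values were found for MYL12A −0.82, COL18A1 −2.02, TXNRD1 −1.48, COL6A1 −1.02, COL7A1 −0.81, ITGA6 −0.81, DLC1 −1.36, ID1 −1.65, COL8A1 −1.76, SLC11A2 −0.58, PDP1 −1.28, LAMA3 −1.11 and COL6A2 −1.45. The call was lost without 1 library only for CYP1B1 and COL18A1 (B4-4 EDTA 2, adjusted p = 0.0525 and 0.0913) and for MYL12A and TXNRD1 (Addback NA 1, adjusted p = 0.0524 and 0.0517). It was lost without 11 libraries for CEBPB, with an adjusted p of up to 0.202, and without 10 for COL6A2, up to 0.256. No value changed sign when a library was left out. KLK5, KLK7, KLK8, KLK10, MUC16, AZGP1, SPRR1A, SPRR1B, S100P and IQCN had few or no counts in Addback NA, and the size of their fitted values depends on the prior count.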

How the results depend on the processing

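ITGB4 kept its direction under every alternative run, at +1.45 to +2.55 when 1 library was left out, but for a change beyond 2-fold (+1.89) it was not called (adjusted p = 0.072). The count of 3723 genes between Addback NA and B4-4 NA was 1957 with group weights, 1288 for the compared groups alone, 315 beyond 2-fold, and 1324 (without Addback NA 1) to 4680 (without B4-4 NA 1) when 1 library was left out. It was 3719 under RLE (3653 shared), 3689 under upper-quartile scaling (3555 shared), 4260 with no filter (3361 shared) and 3465 with DESeq2 (3272 shared). The replicate block gave 3734 genes (3573 shared); it ended the calls of BCAM (adjusted p = 0.051) and AKR1B1 (0.0637) and raised the higher aryl hydrocarbon receptor genes to 4. The count of 1383 genes whose difference changed between EDTA and NA was 2103 with no filter, 640 for the compared groups alone, and 403 to 2994 when 1 library was left out. The count of 5681 genes against Vector NA was 9356 with group weights, 9436 for the compared groups alone, 690 beyond 2-fold, and 3137 to 7269 when 1 library was left out.

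The sign turned for EGR1 (−0.22 without Addback NA 2; −0.86 to +3.91 when any library was left out), for CANX (0.01 under upper-quartile scaling; −0.084 to +0.062) and for LAMB3 (−1.14 to +0.10, positive without B4-4 NA 2). None of these was called with all libraries. The causes were not tested. Calls of single genes were followed for a chosen set of the named genes, 110 called and 7 not called. Other called genes of the text, such as COL17A1, NECTIN2, EPCAM and CD14, were outside this set. Of 110 named genes called, 98 kept the call without each library in turn. Among the 110, leaving out 1 library moved the log2 fold changes of AREG (−1.47 without B4-4 NA 1), PGK1 (−0.19 without B4-4 NA 1) and KLK10 (−9.46 without Addback NA 1) by over 1.5 times. With 2 libraries per group, leaving out 1 leaves a lone sample assumed to vary like the other groups. Depth was similar between libraries, while the spread within B4-4 NA limits the precision of every value that rests on it.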
